A study of Mus musculus with 9 samples.

Results

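The enzymes of de novo purine and pyrimidine synthesis were followed in antigen-specific CD8+ T cells with and without Tsc1. The 10 genes were listed by their place in the pathways: Cad, Umps and Ctps for pyrimidines, and Ppat, Gart, Pfas, Paics, Adsl, Atic and Impdh2 for purines. Of these, 8 had a probe set assigned to a single gene, out of 17097 genes so measured in the series. Impdh2 had no named probe set and Atic stood only on a probe set assigned to 3 genes, so neither was analysed here. Where a gene had several probe sets, the one with the highest mean over all 9 arrays gave its main value. The samples were T cells recognising OVA, a model antigen, taken by flow cytometry from mouse spleens on day 9 of Listeria monocytogenes infection, with 1 array each. The 4 WT samples came from Tsc1-fl/fl mice lacking cre, and the 5 Tsc1-/- samples from Tsc1-fl/fl mice positive for Granzyme B-cre, all on a C57BL/6 background. Cre under Granzyme B acts in cells that have turned on granzyme B, and since no WT mouse carried cre, an effect of cre itself and loss of Tsc1 cannot be told apart. Whether every sample was its own animal is not stated in the labels, and p-values therefore cover the variation among these 9 samples, which may be partly technical.

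Dividing T cells build nucleotides from glutamine, aspartate, glycine, folate-borne carbon and ribose phosphate. mTORC1, the kinase complex that the Tsc1-Tsc2 complex restrains, is known to drive both pathways: its effector S6 kinase phosphorylates the Cad protein, and its action through Atf4 raises folate enzymes that feed the purine ring. The transcription factor Myc is known to induce many of these genes in activated lymphocytes. The arrays read RNA, not phosphorylation or enzyme activity.

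RefSeq promoter windows (build GRCm38.p6) were at hand for 9 of the 10 genes, all but Pfas. The letters CACGTG, the E-box that Myc and related factors bind, read the same on both strands and were searched in the 250 bases before each annotated start. They were found for Atic, Impdh2 and Paics, 3 of the 9 genes, and in 6.02% of all 32851 windows of that length. The windows of 3 members are shown, with CACGTG in capitals. Umps is shown because it was the only member whose groups did not overlap, and Paics and Ppat because they are neighbours on chromosome 5 on opposite strands, with gene ranges that overlap by 277 bases at their 5′ ends. The Umps window is chr16:33967039-33967288, minus strand, the Paics window chr5:76951052-76951301, plus strand, and the Ppat window chr5:76951579-76951828, minus strand.
Umps: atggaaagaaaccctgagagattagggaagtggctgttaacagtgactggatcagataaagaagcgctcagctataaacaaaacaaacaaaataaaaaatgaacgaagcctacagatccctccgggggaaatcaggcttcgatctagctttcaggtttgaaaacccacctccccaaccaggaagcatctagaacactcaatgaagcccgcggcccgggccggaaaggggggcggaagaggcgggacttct
Paics: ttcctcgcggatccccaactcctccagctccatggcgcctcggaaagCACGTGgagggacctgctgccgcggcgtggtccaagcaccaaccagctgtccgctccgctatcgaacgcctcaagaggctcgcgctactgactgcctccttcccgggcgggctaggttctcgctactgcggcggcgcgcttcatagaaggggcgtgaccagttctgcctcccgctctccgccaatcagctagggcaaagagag
Ppat: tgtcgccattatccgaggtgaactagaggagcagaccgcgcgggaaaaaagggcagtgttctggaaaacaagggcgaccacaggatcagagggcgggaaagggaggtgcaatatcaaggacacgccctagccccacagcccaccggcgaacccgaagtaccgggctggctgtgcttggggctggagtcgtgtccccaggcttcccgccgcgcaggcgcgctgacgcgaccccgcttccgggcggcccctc
The Paics match begins 203 bases before the start. A match of letters is not a measured binding site, and its absence from a window says nothing of a factor elsewhere at the gene.

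The arrays correlated at 0.987 to 0.991 within and 0.982 to 0.990 between genotypes. Tsc1, the targeted gene, read 7.56 to 7.77 in WT and 7.27 to 7.51 in Tsc1-/-, without overlap, though it missed the threshold over all genes (adjusted p = 0.114, limma). That difference, by the brightest probe set, was -0.26. Its other probe sets differed by -0.01 and -0.32, with overlapping groups in both. Among 9 measured genes of CD8+ T cells, Cd8a averaged 12.08 in WT and 12.10 in Tsc1-/-, and Cd3e 11.81 and 11.82. The 1 call on that list was Gzmb, which encodes granzyme B, after which the cre is named. It read 11.38 to 11.78 in WT and 12.00 to 12.40 in Tsc1-/-, and rose by 0.58 (SE 0.11, adjusted p = 0.0339, limma). All values are log2 expression values, differences are Tsc1-/- minus WT on that scale with limma's standard error, and a gene was called changed at an adjusted p under 0.05 over all genes.

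The comparison of the genotypes asks whether nucleotide synthesis genes differ at the RNA level once Tsc1, the brake on mTORC1, is lost. None of the 8 measured enzymes passed the threshold in either direction (limma), against 1.28% of all genes. Most differences were small and positive. Umps and Pfas had the largest, at 0.23 and 0.45 (117% and 137% of the WT level), and they were the only members with an unadjusted p under 0.05, 2 of 8 against 17.2% of all genes. The groups of 1 member, Umps, did not overlap, against 7.96% of all genes. The difference was above 0 for 7 of 8 members (6 of 8 under quantile normalization, where that of Ctps was -0.00026), against 48.2% of all genes, and the median was 0.11 over the members and -0.01 over all genes.

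Among the pyrimidine enzymes, Cad encodes the multifunctional protein that makes dihydroorotate from glutamine, bicarbonate and aspartate, and is the member that S6 kinase phosphorylates. It read 7.57, 7.68, 7.78 and 7.63 in WT replicates 1 to 4 and 8.24, 7.55, 7.96, 7.76 and 7.51 in Tsc1-/- replicates 1 to 5. The Tsc1-/- arrays thus lay on both sides of the WT range, with 2 of 5 above it. The difference was 0.14 (SE 0.13, 95% interval -0.15 to 0.43, adjusted p = 0.646, limma). Umps, whose product turns orotate into UMP, read 7.51, 7.51, 7.26 and 7.49 in WT and 7.81, 7.71, 7.57, 7.58 and 7.68 in Tsc1-/-. Every Tsc1-/- array was above every WT array (exact permutation p = 0.0159, two-sided and the smallest that all splits of the arrays into 4 and 5 can give). The difference of 0.23 (SE 0.08, 95% interval 0.04 to 0.41) did not pass over all genes (adjusted p = 0.196, limma). Ctps, the CTP synthase whose human counterpart is needed for lymphocyte proliferation, read 7.68, 7.91, 7.87 and 8.07 in WT and 8.17, 7.84, 7.74, 7.87 and 7.98 in Tsc1-/-. Both groups covered nearly the same range, and the difference was 0.04 (95% interval -0.19 to 0.27).

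Among the purine enzymes, Ppat, the amidotransferase that commits ribose phosphate to the pathway, read 7.65, 7.89, 8.22 and 7.91 in WT and 8.41, 8.07, 7.90, 7.96 and 8.11 in Tsc1-/-. WT replicate 3 lay above 4 of the 5 Tsc1-/- arrays, and the difference was 0.17 (SE 0.13, 95% interval -0.10 to 0.44). Gart, a protein with several early activities of the pathway, was the only member with a negative difference. It read 7.27 to 7.43 in WT and 7.23 to 7.39 in Tsc1-/-, a difference of -0.07 (95% interval -0.23 to 0.10), and the 2 ranges nearly coincided. Pfas, which adds the glutamine nitrogen before the imidazole ring closes, had the widest spread. It read 6.19, 6.58, 6.72 and 6.15 in WT and 7.60, 6.51, 6.62, 6.71 and 6.86 in Tsc1-/-. Only 2 of 5 Tsc1-/- arrays exceeded the highest WT array, and the highest of all was Tsc1-/- replicate 1. The difference was 0.45 (SE 0.20, 95% interval 0.01 to 0.89, adjusted p = 0.276, limma; exact permutation p = 0.111). Paics, which carries the carboxylase and the succinocarboxamide synthetase, read 9.76 to 10.02 in WT and 9.75 to 10.28 in Tsc1-/-, with a difference of 0.08 (95% interval -0.16 to 0.32). Adsl, the lyase used both on the way to IMP and from IMP to AMP, read 7.22 to 7.63 in WT and 7.30 to 7.51 in Tsc1-/-. All of its Tsc1-/- arrays lay inside the WT range, and the difference was 0.07 (95% interval -0.13 to 0.28). It was 0.16 without WT replicate 1, 0.03 without WT replicate 2 and 0.03 without WT replicate 3.

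**Figure D1:**
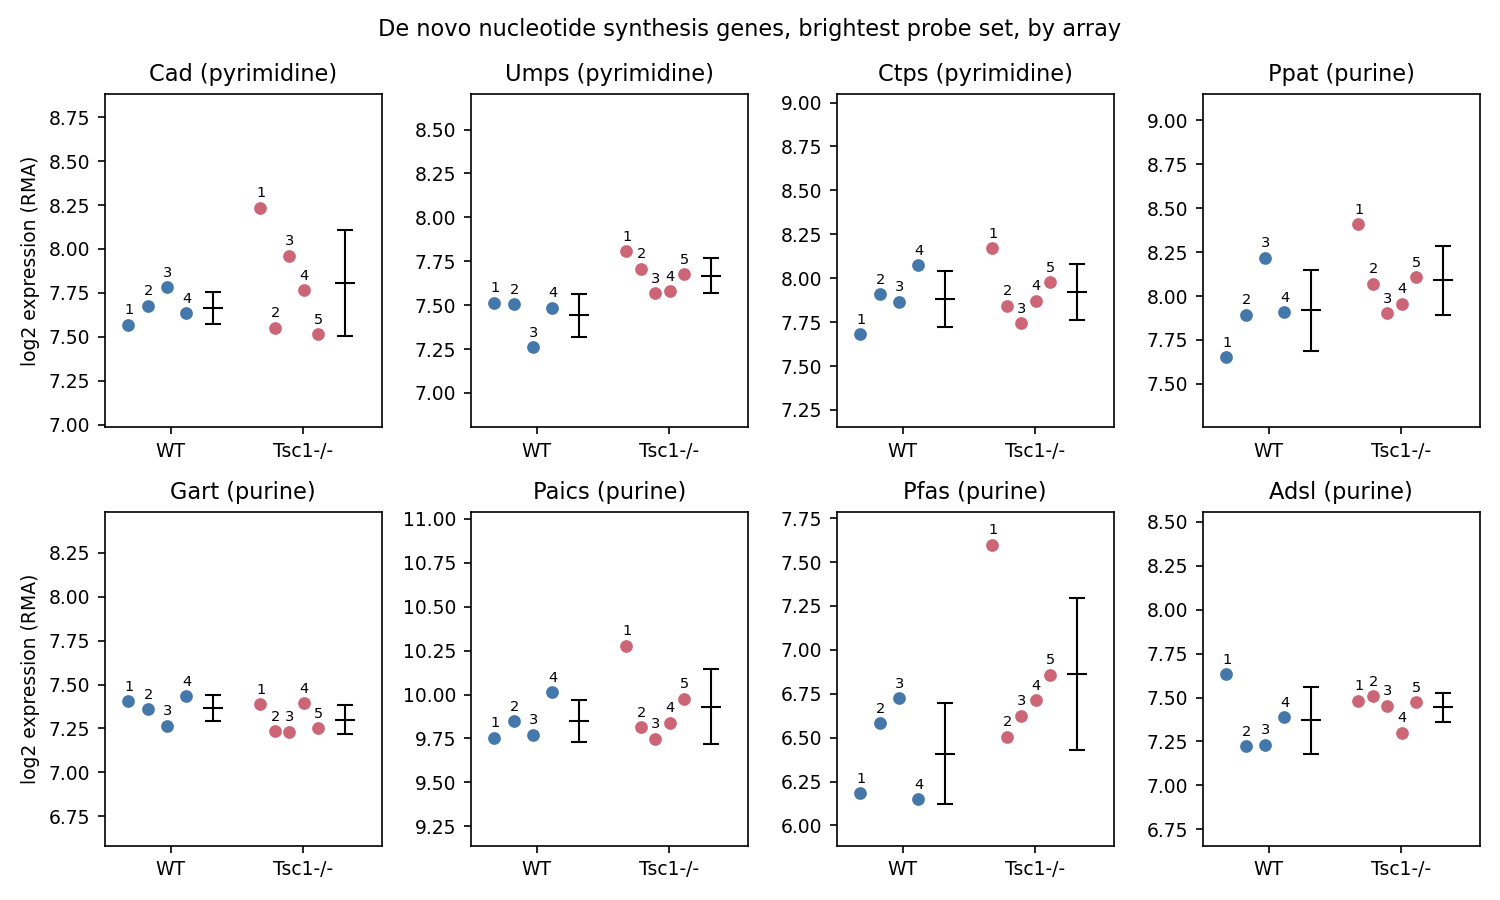
Log2 expression (y axis, RMA values) of the 8 measured members by genotype (x axis), 1 numbered point per array, with the group mean and SD as a bar at the right of each group (n = 4 and 5). All panels span the same number of log2 units. The Umps groups do not overlap, and Tsc1-/- replicate 1 is the highest point in 6 of 8 panels.

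The array Tsc1-/- replicate 1 stood out across the members. It was the highest of all 9 arrays for 6 of the 8 genes, Cad, Umps, Ctps, Ppat, Paics and Pfas, while 14.4% of all genes were highest in that array. It exceeded the median of the other Tsc1-/- arrays by 0.93 for Pfas, 0.58 for Cad, 0.45 for Paics, 0.39 for Ppat, 0.31 for Ctps and 0.18 for Umps. For Gart the gap was 0.14 and for Adsl 0.02. The mean level over the 8 members was 8.17 in this array, 7.78 to 7.85 in the other Tsc1-/- arrays and 7.67 to 7.77 in WT. Without it, the difference of Cad was 0.03, that of Pfas 0.27 and that of Ppat 0.09, and those of Paics and Ctps were -0.003 and -0.02. Umps moved least among these, to 0.19. The same array had the highest mean level over an S phase list of 18 replication genes (8.82, against 8.23 to 8.47 in the other Tsc1-/- arrays and 7.68 to 8.18 in WT), over 13 deoxynucleotide genes (9.10, against 8.84 to 9.02 and 8.55 to 8.80) and over 11 one-carbon genes (7.52, against 7.17 to 7.37 and 7.06 to 7.21). The part of these in the members' levels was not tested.

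**Figure D2:**
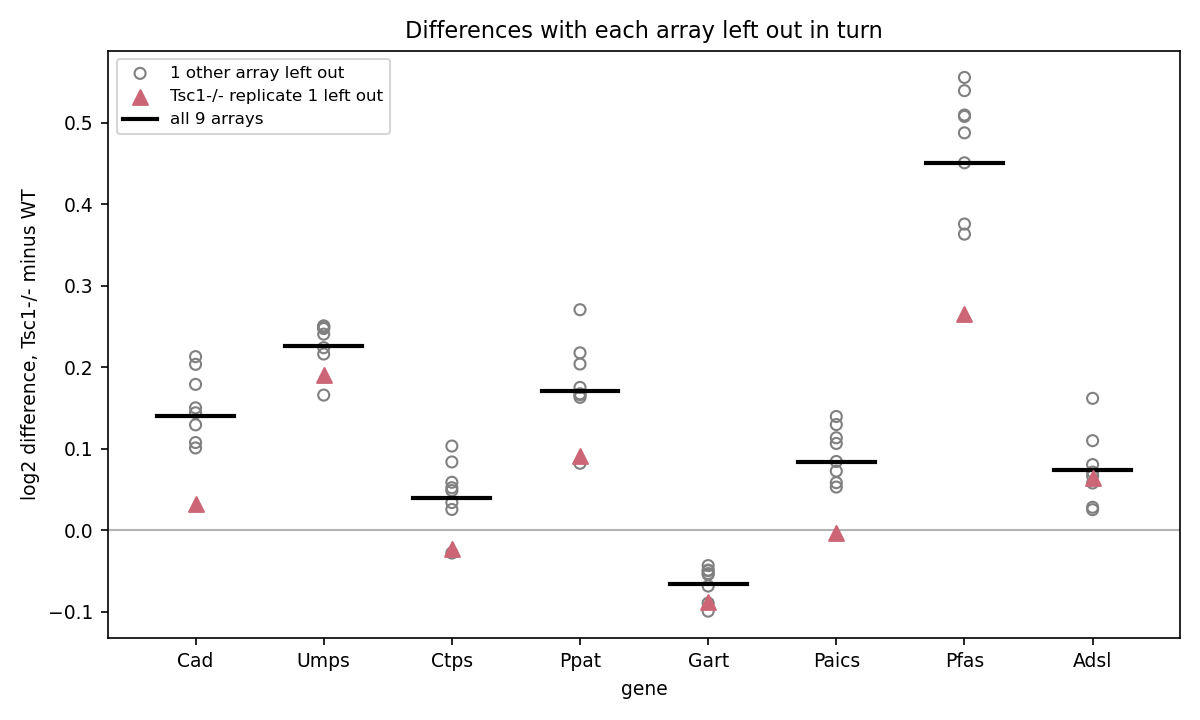
Log2 difference, Tsc1-/- minus WT (y axis), for each measured member (x axis): the black line uses all 9 arrays, each circle leaves out 1 other array, and the triangle leaves out Tsc1-/- replicate 1. Without that array the difference of Cad is 0.03 in place of 0.14 and that of Pfas 0.27 in place of 0.45, while that of Umps ranges from 0.17 to 0.25 with 1 array left out.

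The 8 members were covered by 19 single-gene probe sets, and 5 members had more than 1. Tested probe set by probe set, none passed (limma, adjusted over 28898 probe sets, of which 0.827% passed), and 7 of 19 had an unadjusted p under 0.05, against 16% of all probe sets. Of the 19 differences, 16 were above 0, as were 48.2% over all probe sets. All 4 Umps probe sets had positive differences. The third brightest differed most, from 6.02 to 6.22 in WT to 6.37 to 7.18 in Tsc1-/- without overlap, a difference of 0.72 (SE 0.16, adjusted p = 0.0579, limma). Beside the brightest, at 0.23, the other Umps probe sets differed by 0.29 and 0.27. Ppat also varied by probe set: its dimmer one differed by 0.56 (SE 0.16, adjusted p = 0.116, limma), against 0.17 for the brightest. The 3 Cad probe sets went both ways, at 0.14, -0.18 and 0.28, and so did the 4 of Gart, at -0.07, 0.28, 0.08 and -0.10. The 3 of Paics were alike, at 0.08, 0.05 and 0.12. The brightest probe sets of Cad, Ppat and Paics are of types that can detect related transcripts. Where the probe sets lie along each transcript was not analysed here.

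**Figure D3:**
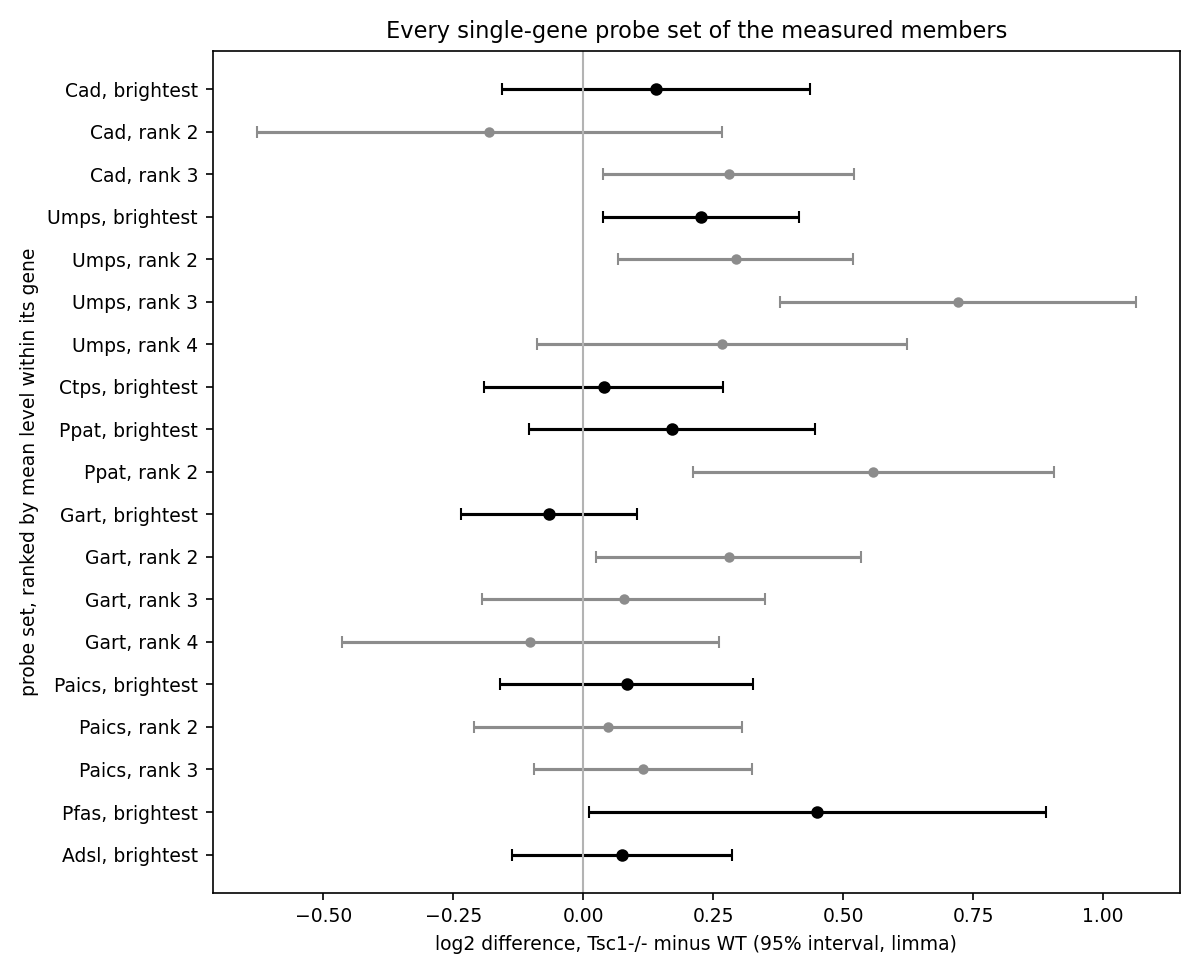
Log2 difference, Tsc1-/- minus WT (x axis), with limma's 95% interval for each of the 19 single-gene probe sets of the members (y axis, ranked by mean level within each gene, black for the brightest). The 4 Umps probe sets all lie above 0, with the third at 0.72, while those of Cad and Gart fall on both sides of 0.

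The rest of the de novo pathways showed no call either. Of 10 further genes, all measured, none passed in either direction (limma), none had an unadjusted p under 0.05, and 9 differences were negative, with a median of -0.03. Over all genes, 1.28% passed, 17.2% had an unadjusted p under 0.05 and 48.2% of differences were positive. Gmps, the GMP synthetase that follows IMP dehydrogenase, had the only positive one, at 0.19 (95% interval -0.02 to 0.39, adjusted p = 0.330, limma). Its other probe set differed by -0.11, and the value for Gmps was 0.04 by the mean of both. With 1 array left out, Gmps ranged from 0.11, without WT replicate 2, to 0.26, without WT replicate 4. Dhodh, the mitochondrial enzyme that links the Cad and Umps steps, differed by -0.03 (95% interval -0.32 to 0.26). The other Dhodh probe set differed by 0.18 (95% interval -0.03 to 0.39). The ribose phosphate activating genes Prps1 and Prps2 and their associated proteins Prpsap1 and Prpsap2 differed by -0.03, -0.08, -0.01 and -0.09. The adenylosuccinate synthetase genes Adss and Adssl1 differed by -0.05 and -0.03, and Impdh1, the other IMP dehydrogenase gene, by -0.01 (95% interval -0.20 to 0.18). Ctps2, the second CTP synthase gene, differed by -0.13 (95% interval -0.32 to 0.07). Its other probe sets differed by -0.03 and 0.25. Within arrays, the difference of Ctps over Ctps2 was 0.16 higher in Tsc1-/- (SE 0.16, exact permutation p = 0.381, two-sided), less than the spread between arrays. Several of these small differences changed sign with the scaling. Under median centring of each array, those of Prps1, Prpsap1, Impdh1, Adssl1 and Dhodh became positive. No direction is given for them, and the count of 9 negative differences depends on the scaling and on the probe sets used.

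Among the lists of nucleotide genes, calls were made only on that for deoxynucleotide and thymidylate synthesis. Of its 13 measured genes, 2 rose and none fell (limma; background 0.971% of all genes higher). An unadjusted p under 0.05 was reached by 6 of them, against 17.2% of all genes, and the median difference was 0.18. Nme1, a nucleoside diphosphate kinase, read 9.45, 9.70, 9.79 and 9.73 in WT and 10.17, 10.15, 10.01, 10.15 and 10.14 in Tsc1-/-. Its groups did not overlap and it rose by 0.46 (SE 0.09, adjusted p = 0.0359, limma). The other Nme1 probe set differed by 0.36 with overlapping groups (adjusted p = 0.123 over all probe sets, limma). Rrm1, the large subunit of ribonucleotide reductase, which turns ribonucleotides into deoxynucleotides, read 8.46, 8.84, 8.82 and 9.13 in WT and 9.90, 9.34, 9.29, 9.55 and 9.36 in Tsc1-/-. Again the groups did not overlap, with Tsc1-/- replicate 1 the highest, and Rrm1 rose by 0.67 (SE 0.15, adjusted p = 0.0483, limma). The other Rrm1 probe set differed by 0.66, also without overlap (adjusted p = 0.0667 over all probe sets, limma). The call of Nme1 ended in 10 of 19 other settings and that of Rrm1 in 13, and the direction held in all of them. These settings include the replicate block and both marker covariates, where no gene of all those tested was called. With 1 array left out, 1 to 297 of all genes were called higher. The lost calls are therefore not particular to Nme1 and Rrm1. Without Tsc1-/- replicate 1, Nme1 differed by 0.44 (adjusted p = 0.0479, limma) and Rrm1 by 0.57 (adjusted p = 0.0565, limma). Leaving out either WT replicate 1 or 2, or any of Tsc1-/- replicates 2 to 5, ended both calls, and leaving out WT replicate 3 that of Rrm1.

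Salvage, breakdown and supply genes did not pass. Of 12 salvage genes, none passed (limma) and 6 had an unadjusted p under 0.05, in both directions, with a median difference of 0.15 over the list. Those 6 included Adk at -0.26 and Dguok at -0.20. The count at an unadjusted p under 0.05, and those for the lists that follow, stand against 17.2% of all genes. Tk1, the thymidine kinase of dividing cells, differed by 0.62 (SE 0.18, adjusted p = 0.104, limma) without overlap, and Dck, the deoxycytidine kinase, by 0.41 (adjusted p = 0.134, limma). Of 15 breakdown genes, none passed (limma) and 7 had an unadjusted p under 0.05, in both directions. Nt5e, the surface enzyme CD73 that makes adenosine from AMP, read 6.86 to 7.29 in WT and 6.07 to 6.82 in Tsc1-/-, without overlap (-0.57, SE 0.14, adjusted p = 0.0651, limma). Its other 2 probe sets differed by -0.02 and -0.34. Ada, which deaminates adenosine, differed by 0.33 (adjusted p = 0.104, limma).

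Of 11 one-carbon genes, none passed (limma), 3 had an unadjusted p under 0.05 and 10 differences were positive, with a median of 0.15. Psat1, an enzyme of serine synthesis, differed by 0.56 (SE 0.14, adjusted p = 0.0759, limma) without overlap, and Mthfs, which returns folinate to the folate cycle, by 0.21 (adjusted p = 0.216, limma). Mthfd2 had no named probe set. Of 7 genes that supply ribose, aspartate or handle glutamine, none passed (limma) and 3 had an unadjusted p under 0.05, with a median of 0.16. They included Asns, the asparagine synthetase, at 0.47 (adjusted p = 0.218, limma) and Taldo1, the transaldolase, at 0.20 (adjusted p = 0.218, limma).

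Of 6 measured regulators of the pathways, none passed (limma), and 2 had an unadjusted p under 0.05. Myc read 8.56 to 8.65 in WT and 7.74 to 8.47 in Tsc1-/-, so its groups did not overlap, with lower values in Tsc1-/- (-0.53, SE 0.14, adjusted p = 0.0750, limma). Rheb, the GTPase that activates mTORC1, read 8.28 to 8.56 in WT and 8.68 to 8.84 in Tsc1-/-, also without overlap (0.31, SE 0.08, adjusted p = 0.0789, limma).

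**Figure D4:**
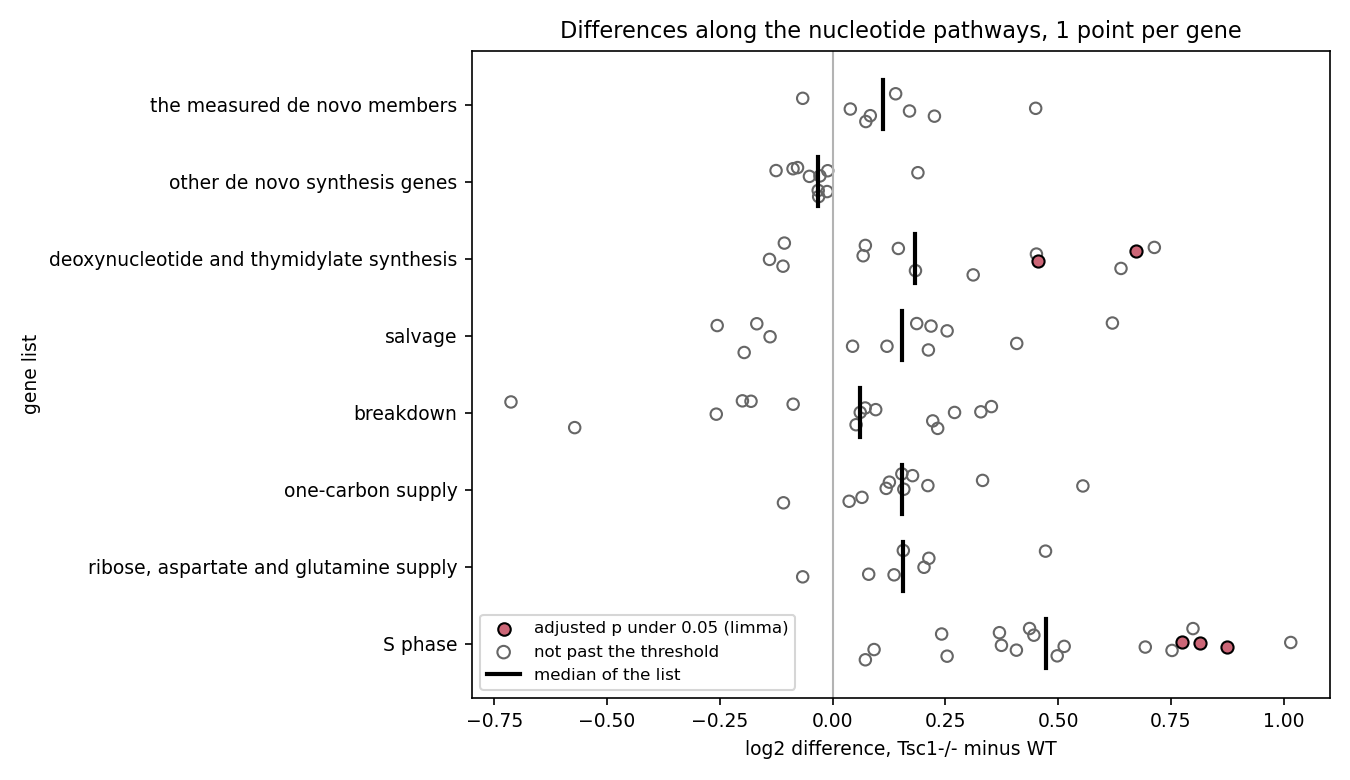
Log2 difference, Tsc1-/- minus WT (x axis), for each measured gene of 8 lists (y axis; vertical position within a list is only for legibility), with the list's median as a bar and filled points for genes past an adjusted p of 0.05 (limma). No de novo gene is filled; the filled points are 2 deoxynucleotide genes and 3 S phase genes, with medians of 0.18 and 0.47 against 0.11 for the members.

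Cell cycle genes and markers of other cell types were set beside these results. All 18 S phase genes had positive differences, with 3 higher past the threshold and a median of 0.47, and all 15 measured mitosis genes did too, with 7 past it and a median of 0.72. Over all genes, 48.2% of differences were positive and 0.971% were called higher. Of 11 macrophage and monocyte markers, 10 had negative differences and none passed (limma; 7 at an unadjusted p under 0.05). Their mean level was 6.18 to 7.03 in WT, where replicate 4 was the lowest, and 5.98 to 6.38 in Tsc1-/-. All 7 measured B cell markers had negative differences, none past the threshold (limma; 3 at an unadjusted p under 0.05), with a mean level of 6.25 to 7.14 in WT and 6.08 to 6.63 in Tsc1-/-. No marker passed (limma) on the dendritic cell list (5 measured, all differences negative, 2 at an unadjusted p under 0.05) or the neutrophil list (4 measured, all negative, 0 at an unadjusted p under 0.05). None passed either among 3 NK cell markers (2 at an unadjusted p under 0.05), 2 erythroid markers and 2 CD4 T cell markers (0 on both). Fitted beside the mean level of the macrophage markers, Umps differed by 0.24, and beside that of the B cell markers by 0.22, against 0.23 without either. The corresponding values were 0.70 and 0.54 for Pfas, against 0.45, and 0.24 and 0.20 for Cad, against 0.14. Paics differed by 0.002 and -0.03, against 0.08, and Ctps by -0.07 and -0.08, against 0.04. Gart differed by -0.13 and -0.12, against -0.07. Ppat differed by 0.22 and 0.17, against 0.17, and Adsl by 0.08 and 0.07, against 0.07. None of these values passed (limma, adjusted p = 0.448 or higher). In both fits no gene of all those tested passed, so a missing call here is not particular to any gene. Outside the members, the same fits gave 0.49 and 0.50 for Rrm1, against 0.67, and 0.41 and 0.42 for Nme1, against 0.46, and neither passed (limma, adjusted p = 0.267 or higher). They gave 0.14 and 0.18 for Asns, against 0.47, 0.15 and 0.18 for Dck, against 0.41, 0.39 and 0.36 for Tk1, against 0.62, and 0.02 and 0.08 for Gmps, against 0.19. In such bulk samples, more cells in cycle and more RNA per cell cannot be told apart, and the part of cell cycle genes in the members' differences was not tested.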

How the data were processed

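RNA of 9 samples was measured on 1 array each, from 12 ng of total RNA amplified with NuGEN kits, per the labels' protocols. The deposited values are log2 probe set summaries that the authors obtained with RMA (Partek 6.5 is also named), per the submitters' processing notes. RMA aligns the arrays' distributions, so a change shared by most transcripts is not visible, and precision is limited by having 9 arrays. The array medians were 6.03 to 6.05 in WT and 5.97 to 6.02 in Tsc1-/-, without overlap. Median centring of each array raised the difference of every member, that of Ctps from 0.04 to 0.08. Of 45037 probe sets, the platform annotation gave 28898 a single gene, 551 several and 15588 none; symbols were updated by Entrez identifier through the RefSeq table of GRCm38.p6 (28689 matched).

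Each of 17097 genes, by its brightest probe set and with no filter on dim genes, was tested with limma 3.58.1 in R 4.3.3 (lmFit, eBayes, genotype only, all 9 arrays), two-sided, Benjamini-Hochberg adjusted over all genes, after the fit was tested on simulated data. Single values were also compared by exact permutation over all splits into 4 and 5 (scipy 1.17.1). The members, gene lists and alternatives were chosen with earlier results of these data known. Named were the 10 members, Tsc1, every other de novo gene listed and, per further list, up to 4 genes past the threshold or 2 with the smallest p. Cell cycle and marker lists are given as counts. Cd8a, Cd3e and Gzmb were named after their values were seen. The planned ratio of Impdh2 to Impdh1 could not be computed without an Impdh2 probe set. Alternatives changed the probe set rule, the filter, the scaling, the variance model, covariates, the replicate block and the arrays included.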

Additional observations from a re-analysis of the deposited data

Results flagged for a closer look

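In 66 groups of 4 or 5 arrays checked over the named genes, 6 had a lowest or highest array set apart from the others by a gap that chance gives in about 1 in 20 groups. Among the members, Umps read 7.26 in WT replicate 3, where the next WT array read 7.49. Adsl read 7.30 in Tsc1-/- replicate 4, where the next Tsc1-/- array read 7.45. Of the other de novo genes, Prpsap2 read 7.66 in WT replicate 4 against 7.33 in the nearest WT array, and Adssl1 read 6.14 in Tsc1-/- replicate 2 against 5.53 in the nearest. Nme1 read 10.01 in Tsc1-/- replicate 3 against 10.14, and Psat1 read 7.49 in WT replicate 1 against 8.07. The high values of Tsc1-/- replicate 1 for the members were not among these 6.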

How the results depend on the processing

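Across 19 other settings, none of the 152 values of the 8 members passed an adjusted p under 0.05 (limma), and 144 kept their direction. With the replicate block or either marker covariate, no gene of all those tested passed. With 1 array left out, 1 to 297 of all genes were called higher and 1 to 159 lower. The smallest adjusted p among the members was 0.0658 (limma), for Umps by the mean of its probe sets (0.38). It was 0.0882 for Ppat by that mean (0.36), and 0.0978 for Umps with dim genes left out. With the reported settings and a threshold of 0.1 in place of 0.05, no member passed by its brightest probe set. Cad, Umps, Ppat, Pfas and Adsl kept their direction in all 19 other settings. Ctps became -0.00026 under quantile normalization, -0.069 with the macrophage and -0.079 with the B cell marker level as a covariate, and ranged from -0.028 to 0.10 with 1 array left out. Gart became 0.047 by the mean of its probe sets. Paics became -0.025 with the B cell covariate and ranged from -0.0031 to 0.14 with 1 array left out.

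Of the named genes outside the de novo pathways that did not pass, Myc passed in 5 of the other settings, Nt5e and Rheb in 3 each, Psat1 in 2, and Dck and Tsc1 in 1 each.

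Among other de novo genes, whose differences lie near 0, the mean of probe sets gave 0.0071 for Prps1, 0.030 for Ctps2 and 0.075 for Dhodh. Median centring gave 0.015 for Prps1, 0.032 for Prpsap1, 0.011 for Adssl1, 0.031 for Impdh1 and 0.012 for Dhodh, and quantile normalization 0.014 for Adssl1. The macrophage covariate gave 0.039 for Prps1, 0.11 for Adssl1 and 0.25 for Dhodh, and the B cell covariate 0.013, 0.15 and 0.15. Without WT replicate 4 and Tsc1-/- replicate 1, Prpsap1 was 0.0055, Prpsap2 0.031 and Adssl1 0.0038. With 1 array left out, the ranges were -0.051 to 0.013 (Prps1), -0.024 to 0.0040 (Prpsap1), -0.13 to 0.0064 (Prpsap2), -0.17 to 0.037 (Adssl1), -0.062 to 0.040 (Impdh1) and -0.15 to 0.043 (Dhodh).

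Same-numbered arrays deviated from their group means with correlations of -0.098, 0.093, -0.071 and 0.025. Arrays with different numbers gave -0.094 to 0.10. These values cannot decide whether the replicate numbers pair the samples. With the replicate number as a block, Adssl1 was 0.037 and Impdh1 0.00067, Umps 0.22, and 0 genes were called higher and 0 lower. Over all genes, 166 higher and 53 lower became 542 and 140 with dim genes left out, 58 and 32 under quantile normalization, 381 higher under median centring, 509 and 171 with a variance trend and robust estimation, 340 and 125 with array weights, 0 and 0 with either marker covariate, 529 and 209 at an adjusted p under 0.1, 145 lower without WT replicate 4 and Tsc1-/- replicate 1, and 1 to 297 and 1 to 159 with 1 array left out. The cause of these changes was not tested. Ctps over Ctps2 kept its direction, at 0.049 to 0.25 with 1 array left out. By the mean of probe sets the 2 genes differed nearly alike, Ctps by 0.040 and Ctps2 by 0.030.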
